A study of Mus musculus with 72 samples.

Results

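Amino acids enter and leave cells through membrane carriers of several solute carrier families, and this report describes the *Slc1a*, *Slc3a*, *Slc6a*, *Slc7a*, *Slc36a*, *Slc38a*, and *Slc43a* genes. Members were all protein-coding genes with 1 of these prefixes and a mean above 5 normalized counts over the 72 mouse RNA-Seq libraries. The rule uses overall abundance and no test between groups, and a gene high in 1 tissue can pass through that tissue alone. It kept 51 of 64 protein-coding genes with the prefixes, out of 55401 genes in the tables: 5 of 7 *Slc1a*, 2 of 2 *Slc3a*, 15 of 21 *Slc6a*, 13 of 16 *Slc7a*, 3 of 4 *Slc36a*, 10 of 11 *Slc38a*, and 3 of 3 *Slc43a* genes. Of the 13 genes left out, 10 had a mean above 5 in at least 1 tissue. Just inside the threshold were *Slc6a18* (9.78), *Slc6a19* (10.3), and *Slc38a11* (15.5), and among those just outside were *Slc6a16* (3.32) and *Slc1a7* (3.24 normalized counts). *Slc7a6os*, the gene on the opposite strand to *Slc7a6*, is a member by its symbol and does not encode a carrier.

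The study asked what BMAL1, the circadian activator encoded by *Arntl*, contributes in muscle. All mice were male. Global *Bmal1*-KO mice were bred from heterozygotes, WT mice were their littermates, and KO+AAV mice were homozygous KO mice given AAV9 with HA-tagged *Bmal1* under the CK6 promoter, a muscle creatine kinase promoter, at postnatal day 5. Gastrocnemius, a calf muscle, gave 6 WT, 6 KO, and 7 KO+AAV libraries at 10 weeks and 5 of each at 40 weeks. At the later age 4 KO and 4 KO+AAV libraries were made of each of 4 other organs, lung, liver, heart, and white fat, with no WT library of them. A separate experiment compared gastrocnemius of 3 KO mice given AAV9-CK6-GFP with that of 3 control KO mice at 10 weeks. Apart from the GFP experiment, collection was at ZT1, 1 hour after lights on, so no rhythm can be read from these values.

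The families divide the work of amino acid traffic. *Slc1a* proteins carry glutamate, aspartate, and small neutral amino acids with sodium, *Slc6a* proteins carry glycine, taurine, creatine, and neurotransmitters, and *Slc38a* proteins carry glutamine and other neutral amino acids. The *Slc7a* light chains exchange large neutral or cationic amino acids and many reach the membrane only as partners of the heavy chains *Slc3a2* (CD98) or *Slc3a1* (rBAT). *Slc43a* proteins carry branched-chain and aromatic amino acids by facilitated diffusion, and *Slc36a1*, *Slc38a7*, and *Slc38a9* work at the lysosome, where *Slc38a9* reports arginine to mTORC1. Muscle exports glutamine and alanine, liver takes both up, and adipocytes take up branched-chain amino acids.

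BMAL1 binds DNA at the E-box, so the promoters of members were searched for the canonical E-box CACGTG, which reads the same on both strands. RefSeq promoters on GRCm38.p6, 300 bases from 250 before to 50 after a start, were matched for 36 of 51 members. The E-box stood in promoters of 4 of the 36 members, *Slc36a1*, *Slc38a5*, *Slc38a7*, and *Slc43a1*, and in 8.09% of all 27025 genes with a promoter. A second motif, TGATGNAA on either strand, the core of the C/EBP-ATF element of amino acid response genes, stood in promoters of *Slc1a4*, *Slc7a7*, and *Slc7a11*, against 4.51% of all genes. A match describes the letters in this window and is not a measured binding site. The 4 member promoters with an E-box follow, with its letters in capitals, and after them that of *Slc1a1*, the member with the smallest *P* in WT versus KO muscle, in which neither motif was found in the window.
Slc36a1: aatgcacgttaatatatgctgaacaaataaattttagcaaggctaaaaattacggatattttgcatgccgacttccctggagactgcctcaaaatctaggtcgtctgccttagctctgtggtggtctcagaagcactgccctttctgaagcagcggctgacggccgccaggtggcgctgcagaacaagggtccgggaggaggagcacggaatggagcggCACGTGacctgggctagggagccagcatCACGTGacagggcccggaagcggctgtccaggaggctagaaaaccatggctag
Slc38a5: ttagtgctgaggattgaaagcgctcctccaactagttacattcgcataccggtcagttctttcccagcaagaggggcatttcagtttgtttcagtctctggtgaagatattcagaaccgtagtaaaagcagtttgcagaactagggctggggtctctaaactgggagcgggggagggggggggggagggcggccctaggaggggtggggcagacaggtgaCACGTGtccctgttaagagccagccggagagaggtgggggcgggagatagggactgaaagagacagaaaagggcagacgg
Slc38a7: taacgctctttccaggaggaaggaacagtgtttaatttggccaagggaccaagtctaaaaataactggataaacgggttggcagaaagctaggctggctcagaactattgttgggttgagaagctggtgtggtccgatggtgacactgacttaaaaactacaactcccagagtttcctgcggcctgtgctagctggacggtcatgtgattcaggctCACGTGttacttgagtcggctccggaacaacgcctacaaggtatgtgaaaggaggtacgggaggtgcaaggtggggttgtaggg
Slc43a1: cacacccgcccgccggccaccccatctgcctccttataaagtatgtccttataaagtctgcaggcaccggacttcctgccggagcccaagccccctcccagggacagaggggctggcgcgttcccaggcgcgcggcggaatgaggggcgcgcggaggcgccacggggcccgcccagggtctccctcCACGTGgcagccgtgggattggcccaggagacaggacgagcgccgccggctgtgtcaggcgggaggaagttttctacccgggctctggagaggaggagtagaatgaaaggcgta
Slc1a1: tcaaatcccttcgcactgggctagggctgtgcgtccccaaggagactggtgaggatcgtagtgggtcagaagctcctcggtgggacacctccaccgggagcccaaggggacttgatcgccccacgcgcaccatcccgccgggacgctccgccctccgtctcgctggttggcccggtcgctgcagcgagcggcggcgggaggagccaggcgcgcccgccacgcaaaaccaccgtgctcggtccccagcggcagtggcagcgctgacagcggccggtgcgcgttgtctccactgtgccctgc
In *Slc36a1* the E-boxes lay 31 and 3 bases before the start, in *Slc38a5* 30, in *Slc38a7* 34, and in *Slc43a1* 64 bases before it. The promoters lie at chr11:55204090-55204389 (plus strand), chrX:8271131-8271430 (plus), chr8:95853442-95853741 (minus), chr2:84840073-84840372 (plus), and chr19:28834885-28835184 (plus), in the order printed.

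The libraries held 6754312 to 50755829 reads counted on genes, the fewest in the GFP experiment (at most 8515400). *Arntl* was lower in KO than in WT gastrocnemius at 10 weeks, by a log2 difference of 1.14 (exact permutation test within sequencing sites, two-sided, *P* = 0.005). It differed by 0.38 at 40 weeks (exact permutation *P* = 0.27) and by -0.04 between KO+AAV and KO at 10 weeks (exact permutation *P* = 0.77), so the gene count did not separate all groups as labelled. The 10-week groups held libraries of 2 sequencing sites, ICBR and Novogene, and site was a term of the model because 3726 of 16199 genes (23.0%) and 5 of 39 members differed between sites. One KO heart library (replicate 2) held 1497560 normalized counts of 6 liver markers, against 296 to 577 in the other heart libraries. One KO white fat library (replicate 2) held 1813360 normalized counts of 6 epididymis markers, with 1116 in KO replicate 3, 776 in KO+AAV replicate 2, and 5.39 to 38.6 in the others.

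Per length, the muscle pool was led by system A carriers, which import small neutral amino acids with sodium, and by carriers of creatine and taurine. Levels between genes are compared as RPKM, reads per kilobase of exon scaled to the library's reads on genes. In the 34 gastrocnemius libraries of WT, KO, and KO+AAV mice, *Slc38a4* (system A) stood at 40.5 ± 13.5 RPKM (mean ± SD), followed by the creatine carrier *Slc6a8* at 34 ± 6.18 and *Slc38a2*, the system A carrier induced when amino acids are scarce, at 18.6 ± 5.06. The taurine carrier *Slc6a6* at 13.6 ± 2.16 and the glutamine carrier *Slc38a3* at 12.7 ± 4.81 came next. The gap between *Slc38a4* and *Slc6a8* was smaller than the SD of *Slc38a4*, and that between *Slc6a6* and *Slc38a3* was smaller than either SD. With the longest transcript as the length *Slc6a8* (44.6) came before *Slc38a4* (43.9), and *Slc38a3* (21.2) before *Slc6a6* (18.6). These 5 genes made up 65.4% of the summed 183 RPKM, 19 of the 51 members stood above 1 RPKM, and 13 stood below 0.1. The cystine and dibasic amino acid light chain *Slc7a9* was at 0 in every gastrocnemius library, and *Slc38a5* had 2 reads in each of 2 libraries, of 10-week WT mice, and none in the others.

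The other tissues had other leading carriers. In liver *Slc38a4* reached 264 ± 45.9 RPKM and *Slc38a3* 193 ± 21.4 (n = 8), the betaine and GABA carrier *Slc6a13* 91.3 ± 8.43, the cationic carrier *Slc7a2* 45.7 ± 12.9, and the betaine carrier *Slc6a12* 35.8 ± 3.33, and these 5 made up 84.4% of a sum of 745. In white fat the glutamine exchanger *Slc1a5* led with 402 ± 141 RPKM, *Slc7a10*, a small neutral amino acid exchanger of adipocytes, had 109 ± 34.9, and *Slc36a2*, a proton-coupled glycine and proline carrier, 53.1 ± 21.0. In lung *Slc43a3*, a nucleobase carrier of this family, led with 95.5 ± 25.7 RPKM, ahead of *Slc3a2* (72.6 ± 9.42), *Slc1a5* (40.0 ± 4.93), *Slc6a6* (30.8 ± 4.07), and the noradrenaline carrier *Slc6a2* (25.4 ± 10.4). In white fat *Slc3a2* at 53.8 ± 38.5 and *Slc7a5* at 39.6 ± 105 had SDs set by the library high in epididymis markers, and in the 4 KO+AAV fat libraries the order was *Slc1a5* (421 ± 90.0), *Slc7a10* (119 ± 5.69), *Slc36a2* (64.9 ± 12.9), *Slc3a2* (41.9 ± 12.2), and *Slc38a10* (34.2 ± 3.65). In heart, 8 libraries gave *Slc38a3* 32.6 and *Slc38a4* 28.4 RPKM, means that the library high in liver markers raised. In the 4 KO+AAV hearts *Slc6a8* led with 28.7 ± 3.66, before *Slc38a2* (21.8 ± 1.80), *Slc38a10* (16.2 ± 2.01), *Slc43a3* (15.4 ± 2.42), and *Slc38a3* (13.6 ± 1.63). In the heat map of levels by summed exon length *Slc38a4* led both gastrocnemius and liver, whereas lung and white fat had other leading genes. By the longest transcript *Slc38a3* led liver (323 against 286 for *Slc38a4*), and *Slc43a3* and *Slc1a5* still led lung and white fat.

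**Figure D1:**
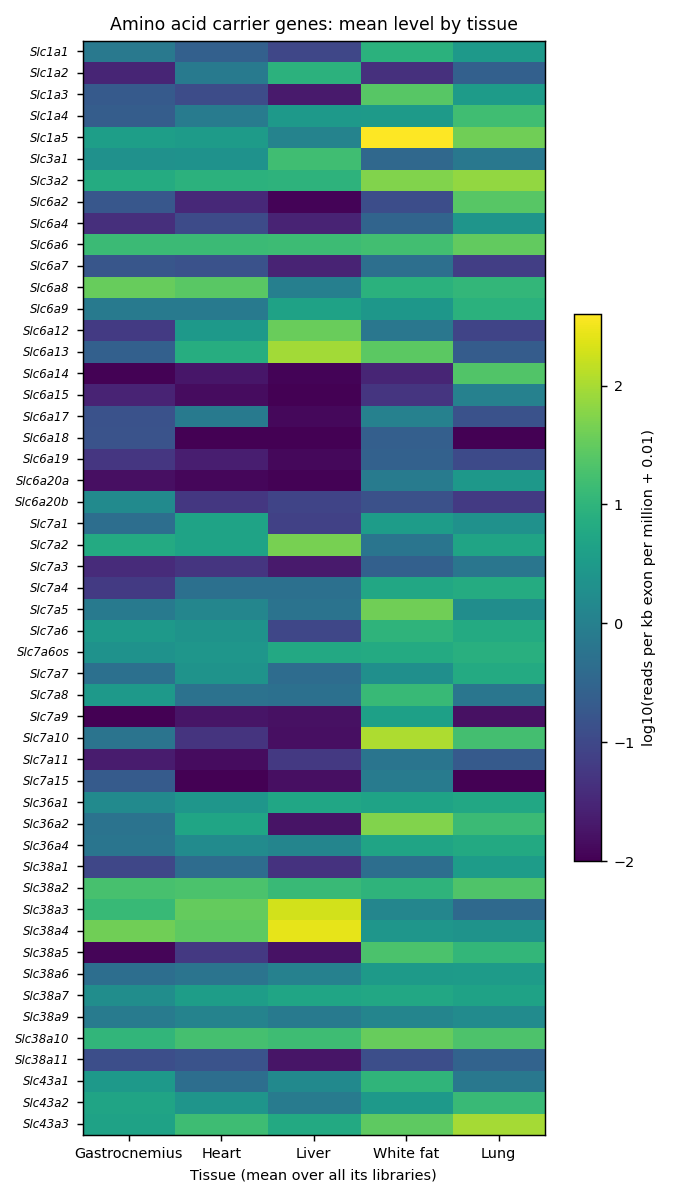
Mean level of the 51 members (rows) in gastrocnemius, heart, liver, white fat, and lung (columns), as the color of log10(RPKM + 0.01), over 34 gastrocnemius libraries and 8 of each other tissue. In liver *Slc38a4* (264) and *Slc38a3* (193 RPKM) are brightest, in white fat *Slc1a5* (402), and 23 members in liver lie below 0.1 RPKM; heart and white fat means include the libraries high in markers of other tissues.

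The question of WT versus KO muscle is which carriers changed without *Bmal1*, and at 40 weeks 12 of 39 members tested did. The *P* values measure the spread between samples labelled as replicates, which may be partly technical. Log2 fold changes are WT over KO on log2(normalized count + 1), so negative values mean more RNA in KO muscle. In KO muscle 7 members were higher, among them the glutamate carrier *Slc1a1*, the branched-chain carrier *Slc43a2*, and *Slc3a1*, whose counts differed between sequencing sites as given below. The 5 lower members included the glycine carrier *Slc6a9*, *Slc38a2*, and the exchangers *Slc1a5* and *Slc7a10*. The call was an adjusted *P* under 0.05 (limma, Benjamini-Hochberg over all genes tested), which 3804 of 16199 genes (23.5%) passed, 12.0% higher and 11.5% lower in WT. The members' share, 12 of 39, stands beside that 23.5%, and their median log2 fold change was -0.06 against 0.01 over all genes. The libraries of WT and KO muscle did not overlap for 7 of the 39 members and for 13.6% of all genes.

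*Slc1a1* (chromosome 19, 28835049 to 28913960, plus strand, GRCm38), also called EAAT3, carries glutamate, aspartate, and cysteine into cells. It had 17.8, 55.1, 44.2, 57.9, and 45.3 normalized counts in the 5 WT muscles and 230, 331, 118, 202, and 175 in the 5 KO muscles at 40 weeks. Every KO value lay above every WT value, and the log2 fold change was -2.26 ± 0.25 (SE; limma, adjusted *P* = 6.1e-08). Of its exon length, 31.9% lies under exons of *4430402I18Rik* on the other strand, and as the strand of counting is not given in the sources used here, reads of such pairs cannot be told apart.

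*Slc43a2* (chromosome 11, 75531694 to 75577575, plus strand), or LAT4, carries leucine, isoleucine, methionine, and phenylalanine. Its counts were 265, 506, 356, 389, and 489 in WT and 1041, 3747, 2377, 1174, and 1052 in KO muscle. All 5 KO libraries were higher than all 5 WT libraries, 1 of them above the others, and the log2 fold change was -2.06 ± 0.30 (limma, adjusted *P* = 5.5e-06). The related *Slc43a1* (LAT3), whose promoter has an E-box, had 316, 226, 290, 369, and 249 in WT and 201, 2615, 82.8, 203, and 165 in KO muscle. KO replicate 2 lay above every WT library and the other 4 KO libraries below them, and the log2 fold change was 0.07 (adjusted *P* = 0.94) over all libraries and 0.89 ± 0.31 (limma, adjusted *P* = 0.041) without KO replicate 2. *Slc43a3* had -0.56 ± 0.22 (adjusted *P* = 0.059), and -0.33 ± 0.20 without that library.

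*Slc6a9* (chromosome 4, 117834506 to 117875198, plus strand), the glycine carrier GLYT1, moved the other way. It had 119, 107, 103, 111, and 102 normalized counts in WT and 46.8, 23.3, 24.5, 46.4, and 33.1 in KO muscle. The WT libraries were close to each other and all above the KO libraries, with a log2 fold change of 1.66 ± 0.24 (limma, adjusted *P* = 4.1e-06). Exons of *Ccdc24* on the other strand cover 27.8% of its exon length. *Slc6a17*, a neutral amino acid carrier known from neurons, had 35.6, 58.9, 21.2, 59.4, and 54.7 in WT and 23.4, 19.7, 30.7, 14.3, and 23.4 in KO muscle. One WT library lay within the KO range, and the log2 fold change was 0.96 ± 0.32 (adjusted *P* = 0.028), a call kept in 10 of 16 alternatives.

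In the *Slc38a* family, *Slc38a2* (chromosome 15, 96687392 to 96699730, minus strand) was lower in KO muscle and *Slc38a10* and *Slc38a9* were higher. *Slc38a2* had 3420, 3949, 3152, 2665, and 2760 normalized counts in WT and 2197, 1075, 1664, 2211, and 2230 in KO muscle. The groups did not overlap, and the log2 fold change was 0.80 ± 0.20 (adjusted *P* = 0.0034). *Slc38a10* had 643, 878, 754, 738, and 897 in WT and 1105, 1075, 2101, 1280, and 1426 in KO muscle. These groups were also separate, with -0.80 ± 0.18 (adjusted *P* = 0.0013). *Slc38a9*, the lysosomal arginine sensor, had 173, 183, 214, 213, and 222 in WT and 230, 295, 333, 296, and 205 in KO muscle. One KO library lay within the WT range, with -0.42 ± 0.13 (adjusted *P* = 0.017), a call lost when WT replicate 1 or KO replicate 3 was left out. The other lysosomal carriers whose promoters have an E-box, *Slc36a1* (-0.21, adjusted *P* = 0.43) and *Slc38a7* (-0.19, adjusted *P* = 0.33), did not pass the test.

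**Figure D2:**
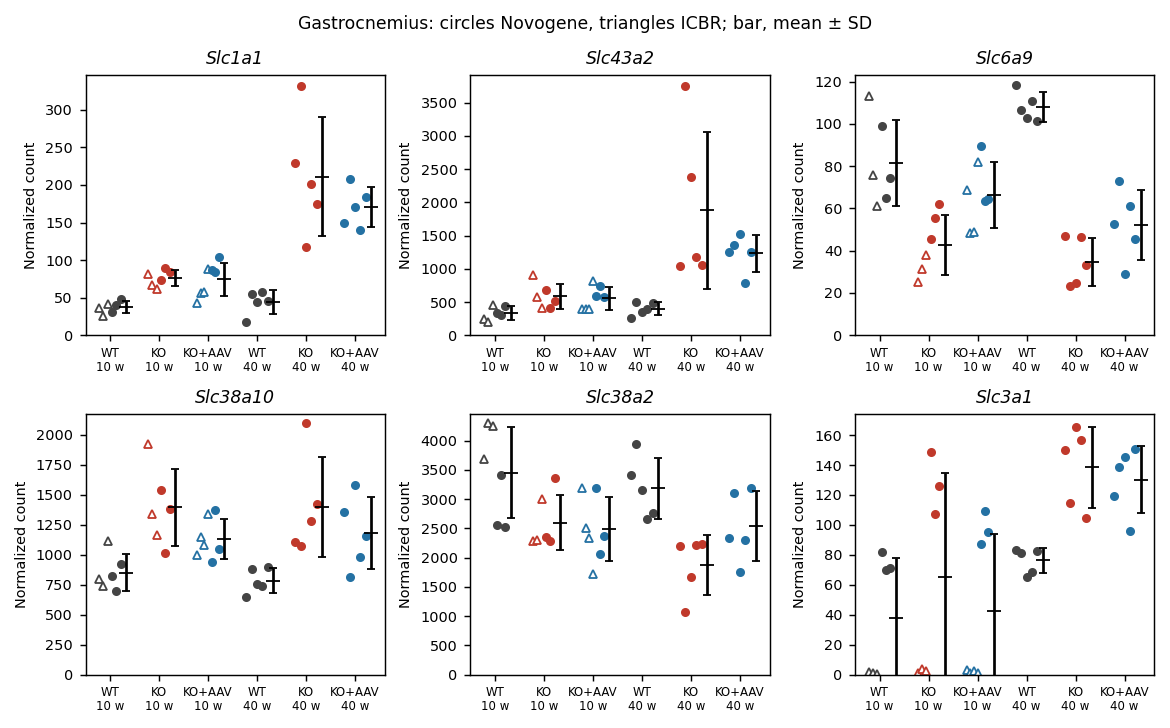
Normalized counts of 6 members in each gastrocnemius library (points; circles Novogene, triangles ICBR) of WT, KO, and KO+AAV mice at 10 and 40 weeks, with the mean and SD as bars. At 40 weeks the 5 KO values of *Slc1a1* (118 to 331) lie above the 5 WT values (17.8 to 57.9) and those of *Slc6a9* below; the ICBR values of *Slc3a1* lie near 0, and SD bars that would run below 0 end at the axis.

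The light and heavy chains changed unevenly. *Slc3a1* (chromosome 17, 85028376 to 85064236, plus strand), the rBAT heavy chain, had 83.0, 81.5, 65.5, 68.8, and 82.8 normalized counts in WT and 150, 115, 166, 157, and 105 in KO muscle. The groups did not overlap, and the log2 fold change was -0.83 ± 0.22 (adjusted *P* = 0.0054). *Prepl* overlaps 26.5% of its exons on the other strand and its partner *Slc7a9* had no reads in these libraries. Its count differed between sequencing sites by 5.23 on the log2 scale, and all 40-week gastrocnemius libraries are of 1 site. *Slc7a15* had 1.48, 15.0, 0, 3.13, and 12.5 in WT and 15.1, 34, 32.2, 23.2, and 19.3 in KO muscle. The KO values were all above the WT values at low counts, with -2.40 ± 0.54 (adjusted *P* = 0.0015). The count of *Slc7a15* also differed between sequencing sites, by 3.22 on the log2 scale, and that of *Slc38a9* by 0.34.

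The common heavy chain *Slc3a2* (CD98hc) and its large neutral partners did not pass the test at 40 weeks: *Slc3a2* had -0.17 ± 0.19 (adjusted *P* = 0.56), the leucine exchanger *Slc7a5* (LAT1) 0.39 ± 0.35 (adjusted *P* = 0.46), and *Slc7a8* (LAT2) -0.26 ± 0.42 (adjusted *P* = 0.71). *Slc7a8* had 224, 162, 195, 242, and 192 in WT and 256, 1486, 96.6, 182, and 119 in KO muscle, and without KO replicate 2 its log2 fold change turned to 0.40 ± 0.27 (adjusted *P* = 0.34) and that of *Slc3a2* to 0.03 ± 0.17. *Slc7a5* counts were 48.9, 51.4, 35.4, 43.8, and 53.1 in WT and 33, 43.0, 36.8, 17.8, and 55.2 in KO muscle, and the ranges overlapped. *Slc7a10*, another partner of *Slc3a2*, had 13.3, 33.8, 47.8, 57.9, and 21.9 in WT and 12.4, 8.95, 4.6, 10.7, and 20.7 in KO muscle. One WT library lay within the KO range, and its call (1.49 ± 0.49, adjusted *P* = 0.026) was lost in 5 of the alternatives tried. *Slc7a11*, the cystine and glutamate exchanger xCT, had 0 to 31.7 normalized counts in gastrocnemius and fell below the filter there.

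*Slc1a5* (ASCT2), which exchanges glutamine for other neutral amino acids, had 148, 377, 331, 336, and 270 normalized counts in WT and 133, 125, 167, 99.9, and 215 in KO muscle. Only the lowest WT library lay within the KO range, and the log2 fold change was 0.96 ± 0.35 (adjusted *P* = 0.045), a call kept in 6 of 16 alternatives. *Slc7a6os* had 102, 150, 101, 120, and 123 in WT and 158, 269, 184, 145, and 120 in KO muscle. The ranges overlapped, with -0.51 ± 0.15 (adjusted *P* = 0.014), a call lost without KO replicate 2. *Slc1a1*, *Slc43a2*, *Slc6a9*, *Slc38a10*, *Slc38a2*, *Slc3a1*, and *Slc7a15* passed the threshold in 16 of 16 alternatives.

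Markers of other cells moved with these groups. The fat marker *Lep* was 5.82 and *Adipoq* 2.06 higher on the log2 scale in WT than in KO muscle, 2 of 6 white fat markers that passed the test, while their summed level was 1798 to 4264 in WT and 1816 to 3039 in KO. The fibroblast sum was 6880 to 10948 in WT and 2594 to 8382 in KO, with 2 of 6 markers (*Dcn* and *Pdgfra*) higher in WT. The endothelial sum was 4363 to 5593 in WT and 5541 to 7481 in KO, with 3 of 8 markers higher in KO, and the slow fiber sum was 1539 to 26991 in WT and 9203 to 157754 in KO. The B cell and plasma cell sum was 1327 to 2325 in WT and 198 to 1356 in KO. No marker of these lists was at 0 in either group. Their part in the carriers' values was not tested, and in bulk muscle fewer cells of a type and less RNA per cell cannot be told apart.

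**Figure D3:**
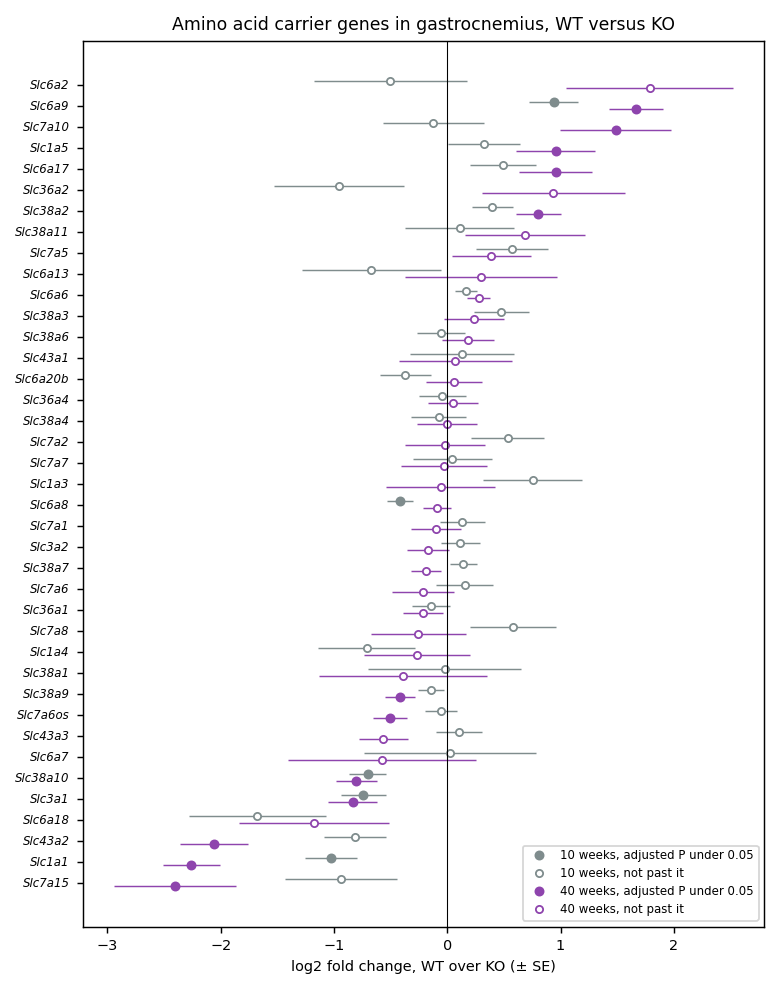
Log2 fold change of WT over KO gastrocnemius with its SE for the 39 members tested, at 10 and 40 weeks, with filled points for an adjusted *P* under 0.05. At 40 weeks 12 points are filled, from -2.40 (*Slc7a15*) to 1.66 (*Slc6a9*), and at 10 weeks 5, from -1.03 (*Slc1a1*) to 0.94 (*Slc6a9*).

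At 10 weeks 5 of 39 members differed between WT and KO muscle, 1 higher and 4 lower in WT, where 8% of all genes were called (4.26% higher, 3.74% lower). The median log2 fold change was -0.02 for members and -0.01 for all genes. *Slc1a1* had a lowest, median, and highest count of 26.3, 38.6, and 48.4 in WT and 61.6, 77.8, and 89.1 in KO muscle. The 6 KO libraries lay above the 6 WT libraries, and the log2 fold change was -1.03 ± 0.23 (limma, adjusted *P* = 0.0031). *Slc6a9* had 61.3, 75.0, and 113 in WT and 25.1, 41.6, and 62.2 in KO muscle. The ranges met at 1 KO library, with 0.94 ± 0.22 (adjusted *P* = 0.0042).

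*Slc38a10* had a lowest, median, and highest count of 693, 810, and 1116 in WT and 1014, 1362, and 1926 in KO muscle, with -0.70 ± 0.16 (adjusted *P* = 0.0043). *Slc6a8*, which brings creatine into muscle, had 2134, 2509, and 2701 in WT and 3046, 3282, and 3550 in KO muscle. Its groups did not overlap, those of *Slc38a10* did, and the *Slc6a8* log2 fold change was -0.42 ± 0.12 (adjusted *P* = 0.018). The 2 members without overlap, *Slc1a1* and *Slc6a8*, compare with 6.06% of all genes. *Slc3a1* had 81.8, 69.6, and 71.2 in the WT and 149, 108, and 126 in the KO libraries of Novogene, and 0.468 to 3.76 in the ICBR libraries of all groups, with -0.74 ± 0.20 (adjusted *P* = 0.016). Of 9 alternatives the *Slc6a9* call was kept in 8, those of *Slc1a1*, *Slc38a10*, and *Slc6a8* in 7, and that of *Slc3a1* in 5, with its adjusted *P* up to 0.92 without the site term.

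Within ICBR and within Novogene libraries, the log2 fold changes were -1.01 and -1.04 for *Slc1a1*, 1.35 and 0.53 for *Slc6a9*, -0.73 and -0.68 for *Slc38a10*, -0.47 and -0.37 for *Slc6a8*, and -0.72 and -0.77 for *Slc3a1*. All 5 kept their direction at each site, where 2 members were called within ICBR and 0 within Novogene libraries alone. *Slc43a2* had 206, 324, and 449 in WT and 403, 552, and 912 in KO muscle, with -0.81 ± 0.27 (adjusted *P* = 0.062). The large neutral carrier *Slc7a5* (0.57 ± 0.32, adjusted *P* = 0.35), the glutamate carrier *Slc1a3* (0.75 ± 0.44, adjusted *P* = 0.37), and *Slc38a2* (0.40 ± 0.18, adjusted *P* = 0.21) did not pass.

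The test of whether the WT versus KO difference itself changed with age called 0 members with limma, 8 at an unadjusted *P* under 0.05 (13% of all genes), 0 with edgeR, and 1, *Slc1a1*, with DESeq2. *Slc1a1* had a difference of -1.23 ± 0.34 between the 2 log2 fold changes (limma, adjusted *P* = 0.10) and *Slc43a2* of -1.24 ± 0.40 (adjusted *P* = 0.16). *Slc7a10* came next with 1.61 ± 0.66 (adjusted *P* = 0.29). Among all genes 60 of 16199 (0.37%) were called.

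Between 10 and 40 weeks, *Slc1a1* and *Slc43a2* rose in KO and in KO+AAV muscle. In KO muscle 3 of 39 members rose and 0 fell, with 8.31% of all genes called (4.05% higher) and a median log2 change of 0.17 for members and -0.01 for all genes. *Slc1a1* rose from a median of 77.8 at 10 weeks, with no overlap, by a log2 change of 1.21 ± 0.26 (limma, adjusted *P* = 0.0046), and *Slc43a2* from a median of 552, with no overlap (4.94% of all genes had none), by 1.44 ± 0.31 (adjusted *P* = 0.0046). *Slc43a3* had 249, 264, and 288 (lowest, median, and highest) at 10 weeks and 451, 919, 460, 271, and 465 at 40 weeks, a log2 change of 0.83 ± 0.22 (adjusted *P* = 0.021) that was not called without KO replicate 2 of 40 weeks. In 4 of 5 KO muscles of 40 weeks it exceeded every 10-week value.

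In KO+AAV muscle *Slc1a1* (1.02 ± 0.25, limma adjusted *P* = 0.010) and *Slc43a2* (1.06 ± 0.30, adjusted *P* = 0.025) rose with age and *Slc36a4*, a proline and tryptophan carrier, fell, with 8.53% of all genes called (4.67% higher, 3.86% lower). *Slc36a4* had 63.5, 74.2, and 162 at 10 weeks and 47.8, 36.5, 52.1, 68.7, and 51.5 at 40 weeks, a log2 change of -0.77 ± 0.23 (adjusted *P* = 0.030). This call was kept in 9 of 14 alternatives, that of *Slc43a2* in 10, and that of *Slc1a1* in 12, and Novogene libraries alone called 0 members. In WT muscle 0 members were called by limma, with 6 at an unadjusted *P* under 0.05 (7.46% of all genes), 0 by edgeR and by DESeq2, and 0.148% of all genes called. There *Slc1a1* changed by -0.02 ± 0.26 and *Slc43a2* by 0.19 ± 0.31. The 3 smallest *P* in WT belonged to *Slc36a2* (1.62 ± 0.65, adjusted *P* = 0.53), *Slc6a18* (1.63 ± 0.68, adjusted *P* = 0.56), and *Slc38a4*, which had 3036, 3377, and 4891 at 10 weeks and 2875, 2031, 2025, 2142, and 1624 at 40 weeks (-0.64 ± 0.27, adjusted *P* = 0.57). All 40-week gastrocnemius libraries are of 1 site, so the change with age also spans the sites. Cell markers differed between ages too, and their part was not tested. The fibroblast sum in KO+AAV muscle was 18772 to 138139 at 10 weeks and 1903 to 11134.5 at 40 weeks, without overlap. In KO muscle it was 7450 to 27187 and 2594 to 8382, and in WT 8229 to 26106 and 6880 to 10948. The B cell and plasma cell sum was 453 to 1300 and 109 to 792 in KO+AAV muscle. It was 1393 to 2484 and 198 to 1356 in KO, and 842 to 2059 and 1327 to 2325 in WT.

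Muscle *Bmal1* was returned in KO+AAV mice to ask which KO changes it reverses, and among the members limma called 0 in KO+AAV versus KO gastrocnemius at either age. At 10 weeks 0.204% of all genes were called, 8 members had an unadjusted *P* under 0.05 (9.23% of all genes), edgeR and DESeq2 called 0, and the median log2 fold change was 0.09 for members and 0.01 for all genes. At 40 weeks 0.259% of all genes were called, 3 members had an unadjusted *P* under 0.05 (10.1% of all genes), edgeR and DESeq2 again called 0, and the medians were -0.06 and 0.02. These comparisons and those of WT with KO share the KO libraries. Cell markers differed here too. At 10 weeks the B cell and plasma cell sum was 453 to 1300 in KO+AAV and 1393 to 2484 in KO muscle, without overlap. The fibroblast sums overlapped, at 18772 to 138139 (median 25267) in KO+AAV and 7450 to 27187 (median 11891) in KO muscle. Their part was not tested.

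The glycine carrier *Slc6a9* was among the 3 members with the smallest *P* at both ages. Its lowest, median, and highest counts at 10 weeks were 48.4, 64.4, and 89.7 in KO+AAV muscle, between those of KO (median 41.6) and WT (median 75.0) and overlapping both, with a log2 fold change over KO of 0.68 ± 0.21 (limma, adjusted *P* = 0.24). At 40 weeks the KO+AAV counts were 52.6, 73.0, 28.8, 61.0, and 45.5, with 0.57 ± 0.24 (adjusted *P* = 0.41). All of these lay below the WT values of 102 to 119. *Slc7a5* had 27.6, 36.9, and 125 in KO+AAV and 17.7, 22.5, and 61.2 in KO muscle at 10 weeks, overlapping ranges with 0.84 ± 0.31 (adjusted *P* = 0.38). *Slc1a3* had 18.2, 29.3, and 120 in KO+AAV and 5.05, 18.4, and 28.9 in KO muscle, with 1.09 ± 0.42 (adjusted *P* = 0.43), and its highest value came from KO+AAV replicate 4, whose fibroblast marker sum was 138139 against 18772 to 27062 in the others.

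*Slc1a1* and *Slc43a2* were not called between KO+AAV and KO muscle. *Slc1a1* had 42.5, 84.4, and 104 at 10 weeks and 150, 208, 171, 140, and 183 at 40 weeks, log2 fold changes over KO of -0.06 ± 0.22 and -0.24 ± 0.25 (adjusted *P* = 0.97 and 0.81). *Slc43a2* had 389, 568, and 814 at 10 weeks and 1256, 1353, 1527, 784, and 1251 at 40 weeks, log2 fold changes of -0.06 ± 0.26 and -0.43 ± 0.30 (adjusted *P* = 0.98 and 0.67). The KO+AAV values overlapped those of KO for both genes and both ages. *Slc38a2* had 2335, 3100, 1763, 2300, and 3188 at 40 weeks in KO+AAV muscle, with 4 of 5 above every KO value and a log2 fold change of 0.45 ± 0.20 (adjusted *P* = 0.43), and *Slc43a3* had -0.53 ± 0.22 (adjusted *P* = 0.40).

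WT and KO+AAV muscle still differed, with 2 members lower in WT at 10 weeks (5.15% of all genes called, 2.21% lower) and 2 higher and 5 lower in WT at 40 weeks (12.5% of all genes, 6.05% higher and 6.41% lower). At 10 weeks these were *Slc1a1* (-0.97 ± 0.22, limma adjusted *P* = 0.0060) and the alanine and serine carrier *Slc1a4*, with 1.51, 6.95, and 18.8 in WT and 10.9, 17, and 60.1 in KO+AAV muscle (-1.58 ± 0.41, adjusted *P* = 0.019). Without KO+AAV replicate 4 *Slc1a4* was no longer called (adjusted *P* = 0.059), while *Slc1a1* still was. At 40 weeks *Slc1a1* (-2.02 ± 0.25, adjusted *P* = 1.3e-06), *Slc43a2* (-1.62 ± 0.30, adjusted *P* = 0.0003), *Slc3a1* (-0.75 ± 0.22, adjusted *P* = 0.020), *Slc7a15* (-1.72 ± 0.54, adjusted *P* = 0.032), and *Slc38a10* (-0.56 ± 0.18, adjusted *P* = 0.033) were lower in WT. *Slc6a9* (1.10 ± 0.24, adjusted *P* = 0.0019) and *Slc6a17* (1.27 ± 0.32, adjusted *P* = 0.0071) were higher, and the groups did not overlap for 5 members and 11.7% of all genes. Of 16 alternatives the *Slc7a15* call was kept in 6 (adjusted *P* up to 0.21), that of *Slc38a10* in 9, that of *Slc3a1* in 13, and the other 4 in all 16. Cell markers moved here too. The B cell and plasma cell sum was 1327 to 2325 in WT and 109 to 792 in KO+AAV muscle at 40 weeks. At that age 2 of 6 fibroblast markers (*Dcn* and *Pdgfra*) and, of 6 white fat markers, *Lep* were higher in WT. The fibroblast sums overlapped, at 6880 to 10948 (median 7856) in WT and 1903 to 11134.5 (median 8864) in KO+AAV muscle. So did the white fat sums, at 1798 to 4264 and 1820 to 3377. At 10 weeks the fibroblast sum was 8229 to 26106 in WT and 18772 to 138139 in KO+AAV muscle. No marker of these lists was at 0, and their part was not tested.

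The test of whether KO+AAV versus KO differed between ages called 0 members with limma, edgeR, and DESeq2, with 2 members at an unadjusted *P* under 0.05 (5.15% of all genes) and 0.00617% of all genes called. The smallest *P* values were those of *Slc6a8* (0.36 ± 0.17), *Slc38a2* (0.54 ± 0.26), and *Slc43a3*, each with an adjusted *P* of 0.93.

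Genes that handle amino acids after entry were read from 5 lists of other genes. In WT versus KO muscle at 40 weeks 10 of 24 branched-chain catabolism genes were higher in KO and 0 lower, beside 11.5% and 12% of all genes, among them *Acad8* (log2 fold change -0.43 ± 0.08, limma adjusted *P* = 0.00033), *Hibch* (-0.48 ± 0.11), and *Ivd* (-0.57 ± 0.13), dehydrogenases and other enzymes of mitochondrial breakdown. At 10 weeks 5 of 24 passed, all higher in KO, beside 3.74% of all genes. Of 14 glutamine, glutamate, alanine, and arginine enzymes, 3 were higher in KO and 1 lower at 40 weeks, 4 of 14 beside the 23.5% of all genes called. The alanine aminotransferase *Gpt* had 262, 391, and 501 (lowest, median, and highest) in WT and 1070, 1416, and 1758 in KO muscle, without overlap (-1.88 ± 0.17, limma adjusted *P* = 1.4e-09), and the aspartate aminotransferases *Got1* (-1.53 ± 0.28) and *Got2* (-0.92 ± 0.17) were also higher in KO. At 10 weeks 2 of the 14 were higher in KO (*Gpt* -1.53 ± 0.16 and *Got1* -0.81 ± 0.26) and 2 lower, among them *Asl* (0.75 ± 0.17), with 8% of all genes called.

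The shares called in the next 3 lists at 40 weeks, 6 of 23, 9 of 30, and 2 of 15, stand beside the same 23.5% of all genes, and those at 10 weeks beside 8%. Of 23 ATF4 response genes, 3 were lower in KO (*Cebpg*, *Vldlr*, *Aldh18a1*) and 3 higher, among them *Shmt2* (-0.43 ± 0.09), at 40 weeks, and 2 lower and 0 higher at 10 weeks. Of 30 genes of amino acid sensing at the lysosome, 4 were lower in KO at 40 weeks, among them *Castor2* (0.86 ± 0.15), and 5 higher, among them *Sesn3* (-1.32 ± 0.23), a sestrin. At 10 weeks 1 was lower and 1 higher. Of 15 carriers of other families, the aromatic amino acid carrier *Slc16a10* was lower in KO at 40 weeks (1.40 ± 0.20, adjusted *P* = 6.0e-06) and the mitochondrial glutamate carrier *Slc25a22* higher, whereas at 10 weeks *Slc17a7*, a vesicular glutamate carrier, was higher (-3.13 ± 0.47). In KO+AAV versus KO muscle, 1 gene of these lists passed at each age, *Asl* at 10 weeks (0.73 ± 0.16, adjusted *P* = 0.043) and *Gpt* at 40 weeks (-0.82 ± 0.17, adjusted *P* = 0.023).

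The GFP vector served as the control for the virus itself, and 4 of 35 members differed between KO+GFP and control KO muscle, 3 higher and 1 lower, with 3.09% of all 14477 genes called (1.83% higher, 1.26% lower). The median log2 fold change was 0.20 for members and 0.00 for all genes, and 9 members did not overlap between groups of 3, against 23.5% of all genes. *Slc38a3*, a carrier of glutamine and histidine, had 546, 452, and 558 normalized counts in KO+GFP and 305, 298, and 277 in control muscle. All KO+GFP values were higher, by a log2 fold change of 0.82 ± 0.11 (limma, adjusted *P* = 0.0017), and this call was kept in 12 of 12 alternatives.

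*Slc38a10* had 698, 804, and 663 in KO+GFP and 521, 518, and 496 in control muscle (0.49 ± 0.09, limma adjusted *P* = 0.017). *Slc1a5* had 123, 216, and 170 against 99.3, 88.7, and 96.4 (0.80 ± 0.18, adjusted *P* = 0.039). *Slc38a4* had 1762, 1300, and 1619 against 1948, 2610, and 2547 (-0.60 ± 0.13, adjusted *P* = 0.030). The groups were separate for each of the 3 genes, whose calls were lost when some single libraries were left out. *Slc1a1* had 48.4, 35.5, and 46.7 against 25.8, 18.2, and 31.1 (0.79 ± 0.26, adjusted *P* = 0.12), and *Slc43a2* had 302, 321, and 287 against 244, 259, and 193 (0.39 ± 0.12, adjusted *P* = 0.11). Both were higher in every KO+GFP library without passing the test.

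The GFP groups also differed in markers of other cells. The macrophage sum was 658 to 948 in KO+GFP and 269 to 414 in control muscle, with 7 of 10 markers called, the slow fiber sum 11139 to 15683 and 1273 to 7660 (5 of 7 called), and the Schwann cell sum 286 to 351 and 740 to 951 (2 of 6 tested called). The B cell and plasma cell sum was 348 to 532 in KO+GFP and 1225 to 1495 in control muscle, the mast cell sum 33.8 to 40.5 and 5.18 to 14.8, and the heart marker sum 767 to 1004 and 63.6 to 394, with 1 heart marker at 0 in each group. The summed skeletal muscle markers were 815013 to 852630 and 981772 to 1167890, and no marker of the macrophage, slow fiber, Schwann cell, and skeletal muscle lists was at 0 in either group. Their part in the carriers' differences was not tested. In the other lists 1 branched-chain gene was higher (*Echs1*), 1 sensing gene (*Tsc2*) and 1 enzyme (*Gpt2*) were lower, and of 13 other carriers *Slc25a22* was higher and *Slc15a2* and *Slc16a10* lower.

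Whether the muscle vector changed carriers in other organs was asked at 40 weeks, and limma called 0 members in any of the 4 organs. In lung 0 of 48 members and 0.0237% of all genes were called, 7 members had an unadjusted *P* under 0.05 (11.9% of all genes), edgeR called 0, and DESeq2 1. *Slc38a11* had 4.20, 14.6, 10.5, and 21.7 normalized counts in KO and 141, 30.0, 131, and 62.8 in KO+AAV lungs, separate groups with a log2 fold change of 2.69 ± 0.58 (limma, adjusted *P* = 0.13). *Slc6a17* was higher in every KO+AAV lung (0.73 ± 0.23, adjusted *P* = 0.25) and the broad amino acid carrier *Slc6a14* lower, with 5810, 3624, 3232, and 3774 in KO and 2964, 3194, 2625, and 2388 in KO+AAV lungs (-0.53 ± 0.17, adjusted *P* = 0.27). Sums of 3 marker lists also separated these lungs. The heart sum was 3582 to 35440 in KO and 61040 to 198449 in KO+AAV lungs. The slow fiber sum was 13710 to 31885 in KO and 36973 to 108988 in KO+AAV. The macrophage sum was 148075 to 204189 in KO and 115781 to 145080 in KO+AAV. No marker of these lists was at 0, and their part was not tested. The 3 members without overlap compare with 6.77% of all genes.

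In heart 0 of 41 members and 0% of 18089 genes were called by limma, with 1 member at an unadjusted *P* under 0.05 (1.28% of all genes), and edgeR and DESeq2 called 0. The cationic carrier *Slc7a1* had 1260, 497, 2377, and 2055 in KO and 2677, 2811, 2907, and 3399 in KO+AAV hearts. Every KO+AAV heart was higher, with 1.15 ± 0.45 (adjusted *P* = 0.86), and the lowest KO value belongs to the library high in liver markers. Without that library the log2 fold change was 0.68 ± 0.22, which did not pass the test. The serotonin carrier *Slc6a4* (1.41 ± 0.63) and *Slc38a11* (0.74 ± 0.33) came next with the same adjusted *P*, and had 1.08 ± 0.63 and 0.62 ± 0.32 without it.

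In liver 0 of 34 members and 0% of 16656 genes were called, with 2 members at an unadjusted *P* under 0.05 (3.32% of all genes), and edgeR and DESeq2 called 0. *Slc1a1* had 20.7, 14.3, 61.4, and 111 in KO and 3.35, 1.02, 13.8, and 9.50 in KO+AAV livers. All KO+AAV values were lower, with -2.68 ± 0.77 (limma, adjusted *P* = 0.997). *Slc6a9* had 1085, 1076, 1314, and 972 in KO and 573, 866, 992, and 889 in KO+AAV livers (-0.44 ± 0.17), and *Slc38a4* had 32750, 46394, 49976, and 38667 against 55730, 51219, 46220, and 52211 (0.31 ± 0.14). The ranges of both genes overlapped.

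In white fat 0 of 50 members and 0% of 21092 genes were called, with 0 members at an unadjusted *P* under 0.05 (1.04% of all genes), and edgeR and DESeq2 called 0. *Slc43a1* had 2058, 642, 2223, and 2240 in KO and 2094, 5162, 2465, and 4563 in KO+AAV fat (1.05 ± 0.48, limma adjusted *P* = 0.91). *Slc36a2* (0.92 ± 0.52) and *Slc1a3* (1.01 ± 0.63) followed, each lowest in KO replicate 2. Without KO replicate 2 the log2 fold changes of *Slc43a1*, *Slc36a2*, and *Slc1a3* were 0.61, 0.41, and 0.36. Without the 3 libraries whose epididymis sum was above 700 they were 0.42, 0.08, and -0.06, the last the reverse of the value over all 8.

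**Figure D4:**
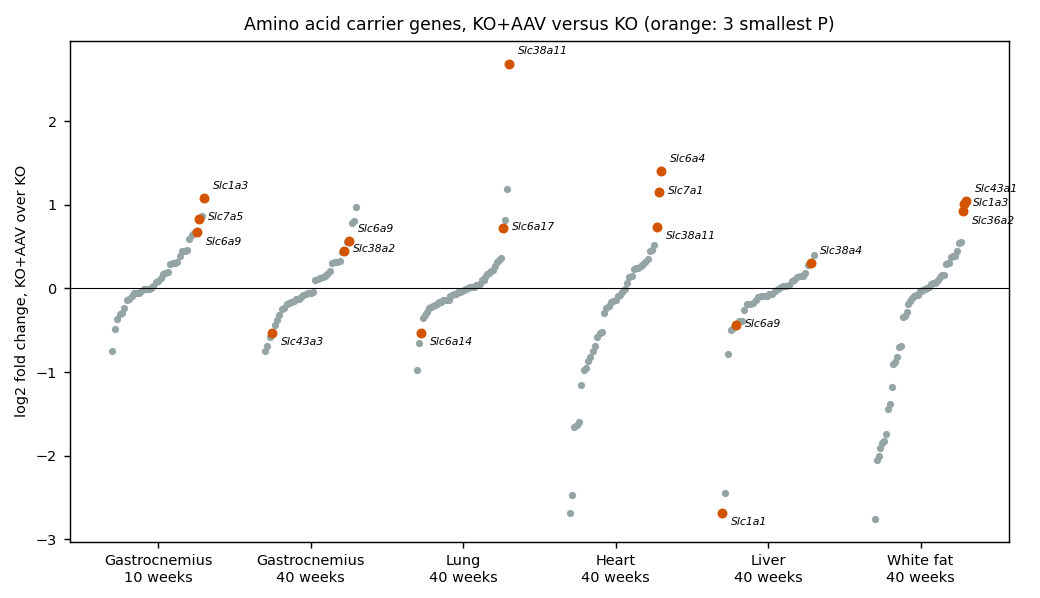
Log2 fold change of KO+AAV over KO for the members tested (points) in gastrocnemius at both ages and in 4 other tissues at 40 weeks, with the 3 members of smallest *P* in orange. No point passed an adjusted *P* of 0.05, and the named values include *Slc6a9* (0.68 and 0.57) in gastrocnemius, *Slc38a11* (2.69) in lung, and *Slc1a1* (-2.68) in liver.

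The 2 libraries high in markers of another tissue also stood apart in several members. In KO heart replicate 2, *Slc38a3* had 42890 normalized counts against 2592 to 3529 in the other 7 hearts, *Slc38a4* 45675 against 115 to 622, *Slc7a2* 15168 against 83.6 to 318, and *Slc6a13* 8432 against 3.70 to 14.9. These are the carriers that led the liver libraries. In KO white fat replicate 2, *Slc7a5* had 45977 against 231 to 816, *Slc1a1* 22010 against 169 to 565, *Slc38a5* 14715 against 2.2 to 114, and *Slc7a11* 2694 against 1.15 to 24.6. *Slc7a9*, at 0 in all gastrocnemius libraries, had 498, 1902, and 1058 in the 3 white fat libraries with epididymis sums above 700, and 0 to 6.10 in the other 5. The series holds no epididymis library, so whether these genes are carriers of that tissue was not tested.

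**Figure D5:**
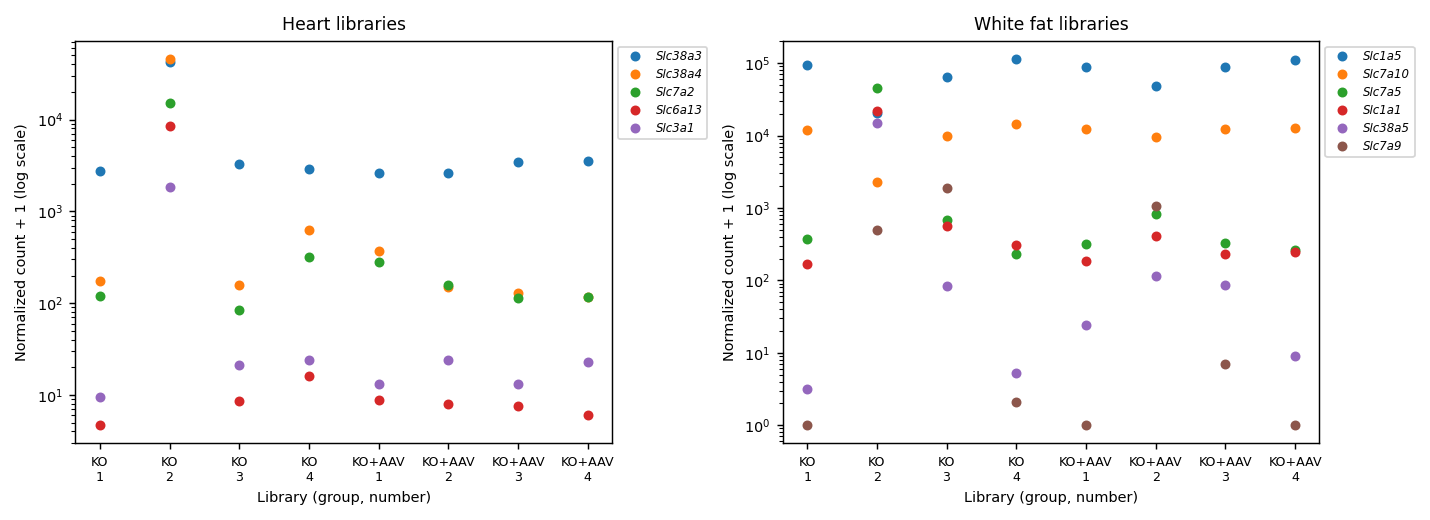
Normalized counts plus 1 on a log axis in each KO and KO+AAV library of heart (*Slc38a3*, *Slc38a4*, *Slc7a2*, *Slc6a13*, *Slc3a1*) and white fat (*Slc1a5*, *Slc7a10*, *Slc7a5*, *Slc1a1*, *Slc38a5*, *Slc7a9*). The heart carriers shown are highest in KO replicate 2 (*Slc38a4* 45675 against at most 622), as are *Slc7a5*, *Slc1a1*, and *Slc38a5* in white fat KO replicate 2, whereas *Slc7a9* is high in 3 fat libraries.

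Each of the 4 tissues was also compared with the other 3 over 32 KO and KO+AAV libraries, on reads scaled together. The labels do not tell whether the same mice gave several tissues, and the model took the libraries as independent. Of 51 members 27 were higher and 11 lower in lung (75% of all genes called, 41.2% higher and 33.8% lower), 11 higher and 27 lower in heart (74.1%, 32.5% and 41.6%), 14 higher and 30 lower in liver (81.7%, 34.4% and 47.3%), and 20 higher and 13 lower in white fat (64.3%, 32.8% and 31.4%). The median log2 difference of members was 0.73 in lung against 0.10 over all genes, -0.95 against -0.18 in heart, -1.21 against -0.25 in liver, and 0.38 against 0.02 in white fat. The libraries of a tissue lay apart from all others for 10, 1, 11, and 4 members in that order, against 16%, 8.26%, 20.8%, and 3.82% of all genes. Some members passed the rule only through a tissue where they are high. Examples are *Slc6a14* and *Slc6a15* through lung and *Slc7a9* through white fat (mean 433 normalized counts, at most 0.888 elsewhere). These counts and medians therefore follow in part from the rule.

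Lung libraries lay above all others for 9 members, 4 of them of the *Slc6a* family, and below all others for *Slc38a10* (-0.72 ± 0.09). *Slc6a14*, which takes up nearly all neutral and cationic amino acids, had 1579 to 3755 scaled counts in lung and at most 5.75 in heart, 1.53 in liver, and 5.63 in white fat, a log2 difference of 10.24 ± 0.33. Its mean was 3451 normalized counts in lung and at most 3.11 in any other tissue. It is thus a member only through lung, so its lung difference follows from the rule and no *P* is given. *Slc6a15*, with means of 349 in lung, 13.3 in white fat, and at most 2.33 elsewhere, would not pass the rule without the lung libraries. Its lung difference therefore follows from the rule as well. The noradrenaline carrier *Slc6a2* (9.78 ± 0.42), *Slc6a15* (6.55 ± 0.36), the serotonin carrier *Slc6a4* (4.27 ± 0.30), *Slc43a2* (2.11 ± 0.16), *Slc43a3* (2.02 ± 0.18), *Slc1a4* (2.32 ± 0.21), *Slc38a1* (3.80 ± 0.37), and *Slc7a3* (2.85 ± 0.32) were also above every library of the other tissues. Heart had 1 such member, *Slc6a8*, with 3647 to 10294 scaled counts in heart and at most 2667 elsewhere (3.13 ± 0.15, adjusted *P* = 2.4e-16).

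Liver had carriers at lower as well as at higher counts than the other tissues. *Slc36a2* had at most 5.03 scaled counts in liver and 304 to 9705 elsewhere (-9.76 ± 0.31, limma adjusted *P* = 1.0e-19), *Slc7a6* 12.6 to 32.8 in liver (-5.30 ± 0.22), and *Slc6a8* 266 to 361 (-3.14 ± 0.15). All 3 lay below every library of the other tissues. *Slc38a3* (7.64 ± 0.51) and *Slc38a4* (7.96 ± 0.74) were higher in liver, as were the glutamate carrier *Slc1a2* (7.35 ± 0.56), *Slc6a12* (8.52 ± 0.77), and *Slc6a13* (7.28 ± 0.70). All of these but *Slc38a4* lay above every library of the other tissues. *Slc38a4* had at least 48191 scaled counts in liver. It had 53577 in KO heart replicate 2, the library high in liver markers, against a heart median of 237.

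White fat was marked by *Slc1a5*, with 15122 to 84951 scaled counts against at most 5773 elsewhere (5.73 ± 0.24, limma adjusted *P* = 1.5e-16), *Slc7a10* with 1701 to 10739 against at most 1284 (8.72 ± 0.42), *Slc7a8* (3.95 ± 0.18), and the glutamate carrier *Slc1a3* (6.63 ± 0.37). Each lay above every library of the other tissues. *Slc36a2* was higher too (5.31 ± 0.31), with overlapping ranges, and *Slc38a2* was lower (-1.37). Without the heart and fat libraries high in other tissues' markers, 40 members differed for lung, 38 for heart, 44 for liver, and 35 for white fat. In heart *Slc38a4* then moved from -1.29 ± 0.74 (adjusted *P* = 0.12) to -2.01 ± 0.52 (adjusted *P* = 0.0011) and *Slc6a13* from -5.13 to -6.40, and in white fat *Slc7a5* moved from 1.53 to 0.62 and *Slc1a1* from 1.54 to 0.74, no longer past the threshold (adjusted *P* = 0.052).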

How the data were processed

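Poly(A)-selected RNA of 72 mouse libraries was sequenced as paired reads of 150 bases. Per the labels and the study's methods, HISAT2 placed the reads on GRCm38 and HTSeq counted them for each gene. The authors then divided each library's counts by its DESeq2 size factor, separately for gastrocnemius, each other tissue, and the GFP experiment, and the deposited signal values are the quotients. The annotation release and the strand of counting are not given in the sources used here. Every deposited value was a whole multiple of its library's step (tolerance 0.01, 100% of values), so reads were recovered. Total reads per library were 9325122 to 41733282 in gastrocnemius, 6754312 to 8515400 in the GFP experiment, and 36903079 to 50755829 in the other tissues, and low counts have the largest sampling error.

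Log2(normalized count + 1) was tested with limma 3.58.1 (intensity trend, R 4.3.3) over genes with a mean above 5 in the libraries of each model, and *P* values were Benjamini-Hochberg adjusted over all of them. One model held 34 gastrocnemius libraries in 6 groups with sequencing site. The GFP experiment and each tissue had their own models, and tissues were compared with each other on recovered reads with median-of-ratios size factors. *Arntl* was tested by exact permutation. Members and gene lists were chosen with earlier results of these data known. Named were members past an adjusted *P* of 0.05 (of the 10 with the smallest *P*, or the 3 smallest where none passed), 9 fixed members (*Slc7a5*, *Slc6a9*, *Slc1a3*, *Slc3a2*, *Slc3a1*, *Slc7a11*, *Slc7a8*, *Slc38a2*, *Slc38a9*), the 5 highest RPKM per tissue, members beside the threshold, and up to 4 genes per list. Not all of them are printed. Others named are members whose promoter holds a motif, members of the same family or complex, and members high in the libraries standing apart, which were named after their values were seen.

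Alternatives were a pseudocount of 0.5, other filters, edgeR 4.0.16 and DESeq2 1.42.0 on the recovered reads, no site term, single sites, the replicate number as a block, and each library of the groups of 5 or fewer left out in turn (of the larger 10-week groups, KO+AAV replicate 4 alone). The code was tested on simulated data. Proteomics and metabolomics were not analysed here. Values of a few single genes counted in the lists are not reported here.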

Additional observations from a re-analysis of the deposited data

Results flagged for a closer look

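Of 96 sets of replicate values of members examined, 6 held 1 library far from the others by Dixon's criterion at 95%, where chance gives about 1 in 20. In 10-week KO+AAV gastrocnemius, replicate 4 had the highest *Slc1a3* (120 normalized counts, a gap of 0.651 of the group's range) and the highest *Slc1a4* (60.1, a gap of 0.595). The same library had the highest fibroblast marker sum of its group. In KO white fat, replicate 2, the library high in epididymis markers, had the lowest *Slc43a1* (642, a gap of 0.887). In KO heart, replicate 4 had the highest *Slc6a4* (29.9, a gap of 0.866). In 40-week KO gastrocnemius, replicate 2 had the highest *Slc43a1* (2615, a gap of 0.952) and the highest *Slc7a8* (1486, a gap of 0.885).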

How the results depend on the processing

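Of the counts of members called, 359 of 379 recomputed values stayed within 1.5 times the count given. The others follow. In WT versus KO at 10 weeks, Novogene libraries alone gave 0 and ICBR libraries alone 2 members. In WT versus KO+AAV at 10 weeks, DESeq2 gave 4, Novogene libraries 0, ICBR libraries 1, and leaving out KO+AAV replicate 4 gave 1. In 40 versus 10 weeks, KO+AAV, Novogene libraries gave 0, and the difference between ages of WT versus KO had 1 with DESeq2, as had KO+AAV versus KO lung. Leaving out 1 library gave 4 to 8 members in WT versus KO+AAV at 40 weeks, 2 to 3 in KO and 1 to 3 in KO+AAV for 40 versus 10 weeks, 1 to 4 in the GFP experiment (1 without KO+GFP replicate 2 or 3), 0 to 1 in lung (1 without KO+AAV replicate 2), and 9 to 13 in WT versus KO at 40 weeks. Deviations of same-numbered libraries had median correlations of -0.04 to 0.05, with 0.44 in white fat. Correlations exceeded 0.1 for 3 of 4 pairs in white fat and 6 of 17 in gastrocnemius at 10 weeks. The numbers were not taken as pairs, though this check cannot exclude that they pair samples. With the replicate block 0 members were called for 40 versus 10 weeks in KO and in KO+AAV, 6 in WT versus KO at 10 weeks, 14 at 40 weeks, and 4 in the GFP experiment. The causes were not tested. Of fold changes of named members, 2894 kept direction and side of the threshold, 88 lost the call, 12 gained one, and 20 reversed. *Slc1a3* in KO+AAV versus KO white fat was -0.0647 without the 3 libraries high in epididymis markers. In WT versus KO at 40 weeks, *Slc43a1* was -1.17 with edgeR and with DESeq2 and -0.35 to 0.89 with 1 library left out, and *Slc7a8* ranged from -0.58 to 0.40 and *Slc3a2* from -0.28 to 0.029, the reversed values of these 2 genes being those without KO replicate 2. Novogene libraries alone turned KO+AAV versus KO at 10 weeks to 0.15 for *Slc1a1* and 0.25 for *Slc43a2*. *Slc1a1* in 40 versus 10 weeks, WT, was 0.051 with edgeR, 0.058 with DESeq2, 0.16 without the site term, 0.055 in Novogene libraries, 0.23 with the replicate block, and -0.15 to 0.27 with 1 library left out, highest without WT replicate 1. *Slc38a4* in heart versus other tissues was 0.072 with edgeR and 0.064 with DESeq2. With the longest transcript as gene length, 19 of 30 leading RPKM levels moved by more than 1 SD. The sets of libraries left out for their markers were chosen after seeing the data. Counts near 5, as of *Slc6a18* and *Slc7a15*, limit what depth can show, most in the GFP experiment.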
